A study of Mus musculus with 8 samples.

Results

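H3K27ac regions that hold the start sites of more than 1 protein-coding gene were examined in mouse primary hepatocytes (MPH) under acute endoplasmic reticulum stress (ERS). A region was a member where TSSs of at least 2 different protein-coding gene symbols of GENCODE release M21 lay inside it. Of the 32196 regions listed on mm10, 1158 (3.60%) met this rule. In 1017 of them the TSSs lay on opposite strands, which makes them divergent members, and in 141 all TSSs lay on 1 strand. Most members, 1111, held 2 symbols, while 45 held 3 and 2 held 4, and together they held TSSs of 2341 genes.

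MPH came from adult male wild-type C57Bl6 mice and were treated for 4 h with 1 µM thapsigargin, which blocks the calcium pump of the ER and so induces ERS, or with 0.04% DMSO as vehicle. Each treatment had 3 H3K27ac ChIP-seq libraries and 1 input library. The processed data used here are 3 lists of region positions (H3K27ac UP, DOWN or unchanged by thapsigargin against DMSO) that carry no values for a library, so depth is unknown and the spread between experiments cannot be given. In the authors' paired analysis, a changed region had an FDR of at most 0.05. It was called UP where bins with a gain outnumbered those with a loss by a factor of 2 or more, and DOWN where that factor was 0.5 or less. Intervals are 95% Wilson intervals for shares and 95% Woolf intervals for odds ratios. They cover counting error only, with regions as units that are not replicates of the treatment. All 6 hepatocyte markers looked for (Alb, Ttr, Apoa1, Apob, Serpina1a and Hnf4a) had a TSS in a region, against 3 of 9 markers of other liver cells (Cd68, Stab2 and Sox9), whose part in the results was not tested.

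H3K27ac marks the nucleosomes beside active promoters and enhancers. Many mammalian genes are transcribed away from a neighbour whose start site lies close by on the other strand, and such divergent (bidirectional) promoters are typically rich in CpG, poor in TATA boxes and often serve housekeeping genes for DNA repair, mitochondria or RNA processing. In ERS, the unfolded protein response (UPR) induces genes for chaperones, translocation, glycosylation and degradation of ER proteins through the factors ATF6, XBP1 and ATF4. A region that spans a divergent promoter has 1 class for both genes, so the lists cannot tell which gene of a pair its change belongs to.

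The DNA between both start sites is shown for pairs on which the results turn, since this is the sequence the genes share. Bases are those of GRCm38 (mm10), plus strand, 5′ to 3′, with the gene on the minus strand named first. Capitals mark matches on either strand to 1 of 9 motifs. These were the CCAAT box (CCAAT), the ER stress response element or ERSE (a CCAAT box, any 9 bases and then CCACG, of which the outer parts are in capitals) and the UPR element or UPRE (TGACGTG). The others were the cAMP response element or CRE (TGACGTCA), an ATF4 site (TGATGCAA), an ETS site (CCGGAAG), the core of the NRF1 site (GCGCATGC), a YY1 site (AAGATGGCG) and the TATA box (TATAAA). An ERSE contains a CCAAT box. The first pair of sequences is the stretch around the ERSE and the others run from start site to start site.
Hsp90b1/Ttc41, chr10:86705510-86705716: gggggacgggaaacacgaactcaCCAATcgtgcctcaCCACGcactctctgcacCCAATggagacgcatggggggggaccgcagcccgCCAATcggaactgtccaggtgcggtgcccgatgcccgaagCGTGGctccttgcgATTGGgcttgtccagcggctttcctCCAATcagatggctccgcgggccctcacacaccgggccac
Alg12/Creld2, chr15:88819460-88819598: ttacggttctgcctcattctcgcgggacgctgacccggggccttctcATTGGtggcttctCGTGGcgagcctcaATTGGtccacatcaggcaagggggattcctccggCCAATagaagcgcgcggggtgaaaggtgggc
Tbccd1/Dnajb11, chr16:22857670-22857844: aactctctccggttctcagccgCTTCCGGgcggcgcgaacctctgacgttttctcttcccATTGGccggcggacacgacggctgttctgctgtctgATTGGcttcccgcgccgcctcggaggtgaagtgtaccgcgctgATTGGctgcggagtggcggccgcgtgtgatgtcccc
Foxred1/Srpr, chr9:35211056-35211154: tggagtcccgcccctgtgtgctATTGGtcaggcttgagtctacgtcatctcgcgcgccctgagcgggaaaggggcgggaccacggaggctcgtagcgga
Idh3g/Ssr4, chrX:73786898-73787027: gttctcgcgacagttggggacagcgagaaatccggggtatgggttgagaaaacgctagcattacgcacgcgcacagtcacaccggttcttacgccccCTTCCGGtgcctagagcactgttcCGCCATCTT
Ppp1r15a/Plekha4, chr7:45526269-45526329: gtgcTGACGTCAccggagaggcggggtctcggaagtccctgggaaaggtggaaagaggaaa
Brca1/Nbr1, chr11:101551956-101552148: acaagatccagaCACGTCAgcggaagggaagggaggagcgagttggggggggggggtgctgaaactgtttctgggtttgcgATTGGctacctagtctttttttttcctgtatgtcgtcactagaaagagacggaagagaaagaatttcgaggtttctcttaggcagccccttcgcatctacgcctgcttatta
Nit1/Pfdn2, chr1:171345647-171345669: gtaaccccccggccggatgtgac
Nmnat1/Lzic, chr4:149485203-149485228: ccacacagCCGGAAGtgcgcgaatcc
Eif2b1/Gtf2h3, chr5:124579132-124579139: cggaaatc

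The first pair of sequences belongs to UP regions at the ER genes Hsp90b1 and Creld2 and carries the ERSE found at shared promoters. The stretch of Hsp90b1, which encodes the ER chaperone GRP94, holds an ERSE on each strand. The next 4 belong to UP regions at other ER genes, with 3 CCAAT boxes between Tbccd1 and Dnajb11 and a CRE between Ppp1r15a and Plekha4. Brca1/Nbr1, Nit1/Pfdn2 and Nmnat1/Lzic belong to DOWN regions, and the first of these holds a UPRE. Eif2b1 and Gtf2h3, in an UP region, are only 8 bases apart.

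Divergent members were UP more often and DOWN less often than regions at 1 gene. Of the 1017 divergent members, 264 were UP (26.0%, 23.4% to 28.7%), against 18.7% of the 8546 regions at 1 protein-coding symbol and 17.1% of all regions. Only 42 were DOWN (4.13%, 3.07% to 5.54%), against 8.62% of regions at 1 symbol and 10.5% of all regions. The odds ratio of divergent members against regions at 1 symbol was 1.53 (1.31 to 1.77) for UP and 0.456 (0.332 to 0.627) for DOWN. Over all 1158 members, 289 were UP (25.0%) and 56 DOWN (4.84%), with odds ratios of 1.45 (1.25 to 1.67) and 0.538 (0.407 to 0.712).

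Same-strand members did not share this pattern. Of the 141, 25 were UP (17.7%, 12.3% to 24.9%) and 14 DOWN (9.93%, 6.01% to 16.0%), shares close to those at 1 gene. Without transcripts annotated as readthrough, only 75 same-strand members remained, with 15 UP and 9 DOWN, against 1016 divergent ones. The shares of the full same-strand group thus cover many members that rest on such transcripts. The odds ratio of divergent against same-strand members was 0.391 (0.208 to 0.736) for DOWN and 1.63 (1.03 to 2.56) for UP, and the interval of the latter included 1 under 8 of 10 alternatives. For DOWN it was 0.617 (0.309 to 1.23) within deciles of CpG content, which no longer leaves out 1. A predicted symbol (Gm number or Rik) was present in 75 of the same-strand members against 114 of the divergent ones, so many same-strand members rest on a gene model rather than on a pair of named genes. A noncoding partner on the other strand went with a smaller difference. Regions at 1 protein-coding symbol were UP in 235 of 1100 cases (21.4%, 19.0% to 23.9%) where a noncoding TSS lay on the other strand and in 1361 of 7446 (18.3%, 17.4% to 19.2%) where none did, and their DOWN shares were 9.18% and 8.54%.

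**Figure D1:**
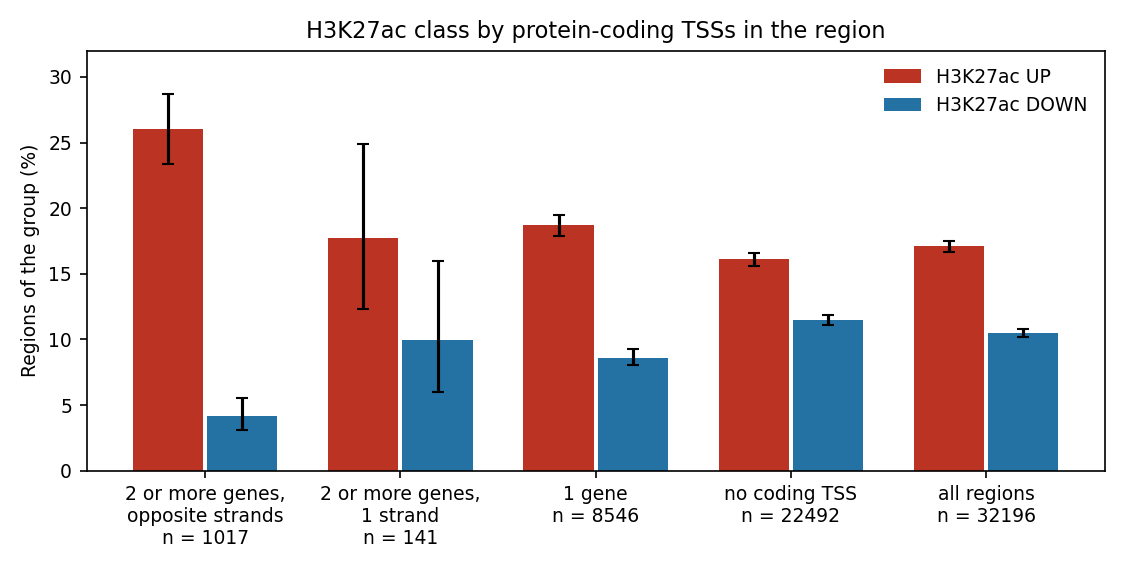
Share of regions (%) that were H3K27ac UP (red) or DOWN (blue) by the protein-coding TSSs they hold, with 95% Wilson intervals as error bars and the number of regions under each group. Divergent members had the highest UP share (26.0%) and the lowest DOWN share (4.13%) of the groups plotted.

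The difference between divergent members and regions at 1 gene was also present among regions of like width. The median width was 1953 bp for divergent members, 1918 bp for same-strand members and 1690.0 bp for regions at 1 symbol, and a wider region can hold more TSSs, so this order is bound to the rule. Within deciles of width, the odds ratio of divergent members against regions at 1 symbol was 1.40 (1.20 to 1.63) for UP and 0.420 for DOWN. In the widest decile (3813 bp or more), 32.1% of divergent members were UP and 16.8% DOWN, against 26.0% and 25.4% of regions at 1 symbol. The order for UP turned in the third decile (9.80% of 51 divergent members against 11.4% of 701 regions at 1 symbol), in the first, which held only 1 divergent member, and in the fifth, with 11.7% of 103 divergent members (6.79% to 19.3%) against 18.5% of regions at 1 symbol (15.9% to 21.4%). Within deciles of CpG content the odds ratios were 1.43 for UP and 0.654 (0.473 to 0.905) for DOWN, the latter nearer to 1.

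**Figure D2:**
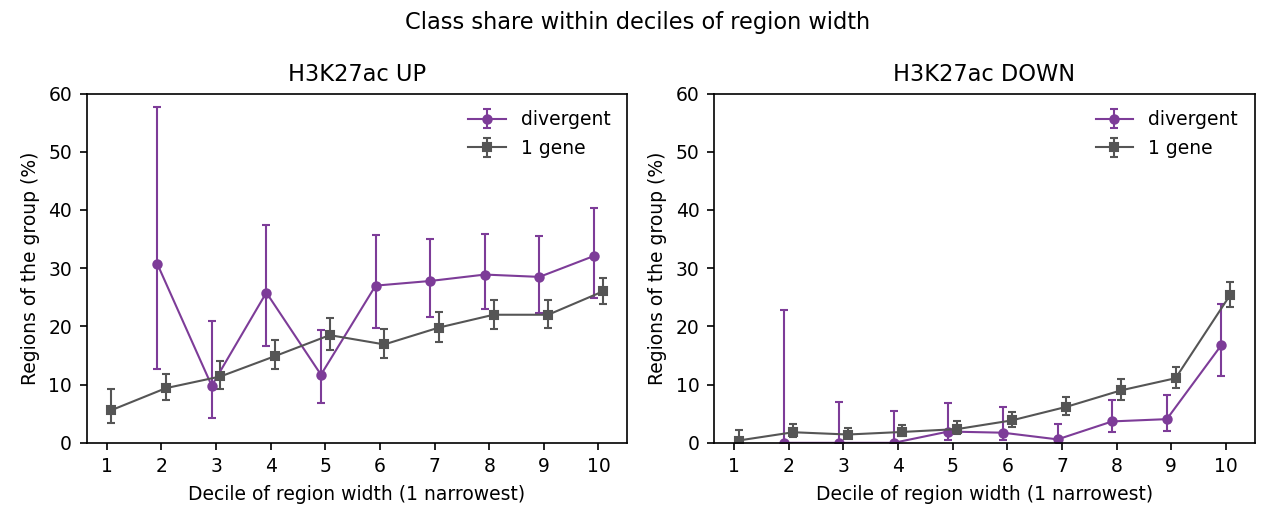
Share of regions (%) that were UP (left) or DOWN (right) in each decile of region width over all regions, for divergent members (circles) and regions at 1 gene (squares), with 95% Wilson intervals and points of fewer than 10 regions left out. The DOWN share reached 16.8% for divergent members and 25.4% for regions at 1 gene in the widest decile.

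DOWN members were the widest of the divergent ones. Their median was 4745 bp, against 2118 bp for UP and 1815 bp for unchanged members, and the same order held at 1 gene (3880.0, 2108 and 1496 bp). Regions of 10000 bp or more were 6 of the UP, 6 of the DOWN and 5 of the unchanged divergent members. The widest UP member (chr3:146589076-146612657, 23582 bp) held Uox, the urate oxidase of the hepatocyte, and Dnase2b. Next came Mgat4b/Sqstm1 (17527 bp), where Sqstm1 encodes the autophagy receptor p62, Mapk14/Slc26a8 (13539 bp) with the kinase p38α, Jmjd1c/Reep3 (13094 bp) and Masp1/Rtp4 (11816 bp), with a protease of the complement lectin pathway. Wide DOWN members included Myl12a/Myl12b/Myom1 (18804 bp), Gm10447/Shroom1 (18270 bp), Apoa1/Apoc3 (14886 bp) and Anxa5/1810062G17Rik (12038 bp), with annexin A5.

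The start sites of most pairs lay within 300 bp of each other or crossed. In 981 divergent members with 1 gene on each strand, the distance was taken between the most upstream TSS of each gene inside the region. The start sites were head to head in 597 pairs, with a median of 116 bases between them, and crossed in 384 (39.1%). Of the crossing pairs, the annotated spans of both genes overlap in 381, and the genes face each other with bodies apart in 3. Whether the overlap lies at the 5′ ends was not tested. Those 3 were Apoa1/Apoc3 (DOWN, 7056 bp between TSSs), Ndufa6/Smdt1 (UP, 8368 bp) and Ndufb10/Rps2 (unchanged, 4415 bp), named after their values were seen. The distance depends on which TSS is used: with the closest TSSs 19.6% of pairs crossed.

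UP shares varied little with the distance. They were 24.2% for crossing pairs, 27.8% at 0 to 100 bp, 27.8% at 101 to 300 bp, 24.0% at 301 to 1000 bp and 27.3% of the 33 pairs over 1000 bp, each interval overlapping the others. The median distance of head-to-head pairs was 114 bp in UP, 162 bp in the 19 DOWN and 119 bp in unchanged members. The pairs with the shortest distance among UP members were Dhrs1/Nop9 (2 bp), Eif2b1/Gtf2h3 (8 bp), which encode a subunit of the translation factor eIF2B and of the transcription factor TFIIH, and Ndufa7/Rps28 (9 bp), with a subunit of respiratory complex I beside a ribosomal protein. Among DOWN members they were Nit1/Pfdn2 (23 bp), Nmnat1/Lzic (26 bp), with an enzyme of NAD synthesis, and Anxa5/1810062G17Rik (42 bp). Their sequences are those shown above for Eif2b1, Nit1 and Nmnat1.

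**Figure D3:**
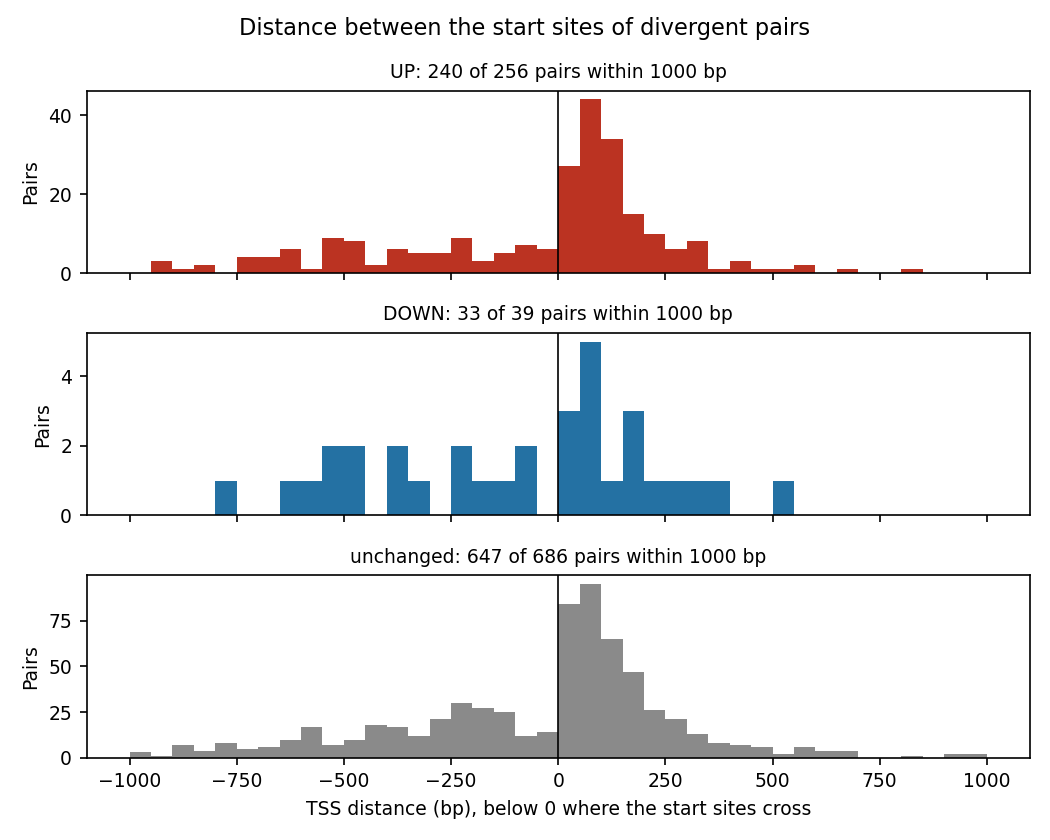
Number of divergent pairs by distance between their start sites (bp, bins of 50 bp, negative where the start sites cross) in UP, DOWN and unchanged members, for pairs within 1000 bp. In each class the highest bin lies on the head-to-head side, with class medians of 114, 162 and 119 bp among head-to-head pairs.

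Among head-to-head pairs, DOWN regions extended furthest beyond the start sites. From a TSS in its gene's direction, the region reached a median of 1496 bp in the 19 DOWN pairs. This reach was 839 bp in the 163 UP and 716 bp in the 415 unchanged head-to-head pairs. Taking the annotation as the starting point, 741 pairs of protein-coding genes start head to head within 1000 bp on mm10. Both 5′ ends lay in 1 region in 548 of them (74.0%), 1 end in 56 and neither in 137, and in 0 pairs did the ends lie in different regions.

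The promoter sequence of divergent members differed from that of 1-gene regions. In windows from 250 bases before to 50 after each gene's most upstream TSS in the region, the median CpG observed over expected was 0.837 for 2072 divergent windows, 0.726 for same-strand and 0.734 for 1-gene windows, and the GC content was 62.0% in divergent and 59.3% in 1-gene windows. Among divergent members CpG was 0.867 in UP, 0.835 in unchanged and 0.725 in DOWN, and at 1 gene the DOWN value was 0.523. The ETS motif was in 26.8% of divergent and 16.5% of 1-gene windows (18.4% of all 10911), and in 13.8% of the 87 divergent DOWN windows. TATA was in 4.49% of divergent and 7.63% of 1-gene windows (7.08% of all), while CCAAT was in 38.2% and 36.7% (37.1% of all). NRF1 was in 6.08% and 5.20% (5.42% of all) and YY1 in 5.07% and 2.67% (3.24% of all). Windows of a close divergent pair overlap, so a motif between them counts for both genes.

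Motifs of the ERS response were about as frequent in divergent as in 1-gene windows. ERSE was in 0.193% of divergent and 0.129% of 1-gene windows, and UPRE in 2.80% and 2.89%. CRE was in 4.25% and 3.49%, and ATF4 in 0.531% and 0.667%. Among UP windows, UPRE was in 5.45% at 1 gene and in 5 of 54 (9.26%) at same-strand members. ERSE was in 4 of 537 divergent UP windows, those of Hsp90b1, Ttc41, Alg12 and Creld2, and in 0 other windows of members, while 15 of all 10911 windows (0.137%) held one and 14 of these lay in UP regions. UPRE was in 4.28% of divergent UP, 2.30% of DOWN and 2.28% of unchanged windows (2.86% of all), CRE in 5.59%, 0 and 4.01% (3.61% of all), and ATF4 in 6 UP (1.12%), 0 DOWN and 5 unchanged windows (0.651% of all). The UPRE windows of divergent UP members included both of Foxred1/Srpr, Idh3g and Sec23a. A match is a description of the sequence and does not show that a factor binds there.

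Most divergent members at ER proteostasis and UPR genes were UP. Of 35 divergent members at a gene of this list, 22 were UP (62.9%, 46.3% to 76.8%, against 26.0% of all divergent members), 2 DOWN and 11 unchanged, beside 87 of 121 (71.9%, 63.3% to 79.1%) 1-gene regions with the same list, so the intervals overlapped. In 15 of the 22 the pair was head to head and in 7 the start sites crossed. Without the regions at listed ER genes, the odds ratio of divergent members against regions at 1 symbol was 1.50 for UP and 0.444 for DOWN. A CCAAT box lay in a window of 15 of these 22 regions, ETS in 10, UPRE in 3 and ERSE in 2. Of all 537 divergent UP windows, 42.6% held a CCAAT box and 26.1% ETS. A region has more than 1 window, so its counts run higher than shares of windows. Whether these motifs are more frequent at listed ER genes was not tested.

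The chaperones and folding enzymes included Hsp90b1 with Ttc41 (chr10:86703020-86707183, 301 bp between start sites), Dnajb11, a cochaperone of BiP, with Tbccd1 (chr16:22856638-22858795, 175 bp), and Creld2 with Alg12 (chr15:88818745-88820525, 327 bp), where Alg12 adds mannose to the precursor of N-glycans. Also UP were Pdia3/Catsper2, Erp29/Tmem116 and Erp44/Invs, with 2 members of the disulfide isomerase family and ERp29, a related protein of the ER lumen. Catsper2 encodes a calcium channel of sperm and Invs a protein of the primary cilium.

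Genes for translocation into the ER were found in UP and in unchanged members. Both Srpr/Foxred1 (chr9:35210000-35212391) with the receptor of the signal recognition particle and Srp54a/2700097O09Rik with a subunit of that particle were UP. So were Sec61b/Alg2 with a subunit of the translocon, Ssr4/Idh3g (chrX:73785656-73788095) with a subunit of the translocon-associated complex, and Spcs1/Glt8d1, Spcs2/Xrra1 and Spcs3/Asb5, which hold 3 subunits of the signal peptidase. Srpr/Tirap, which holds another TSS of Srpr, and Asna1/Trir, with a targeting factor for tail-anchored proteins, were unchanged. Glycosylation came in with Rpn2/Mroh8, Dad1/Abhd4 and Krtcap2/Trim46, all with subunits of the oligosaccharyltransferase. Export and degradation were represented by Sec23a/Gemin2 (COPII coat), Derl2/Mis12 and Erlec1/Asb3 (ER-associated degradation).

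Regulators of the UPR shared regions as well. Ddit3, which encodes the transcription factor CHOP, lay with Mbd6 in an UP region of 6277 bp, with 1755 bp between start sites. Ppp1r15a, whose product GADD34 directs dephosphorylation of eIF2α, lay with Plekha4 (chr7:45521793-45527268, 5476 bp) in a region that reached 4475 bp on the Ppp1r15a side and 938 bp on the other. Cebpb/Tmem189 (8393 bp) had crossing start sites. The DOWN members of this list were Creb3/Tln1 (7467 bp), where the region reached 5102 bp into the side of Tln1, which encodes the cytoskeletal protein talin, and Jkamp/L3hypdh (2779 bp). In the 15 head-to-head UP pairs, the region reached further on the side of the ER gene in 11, with a median of 1007 bp against 839 bp. In the 5 unchanged head-to-head pairs this was so in 1. It was also so in the 1 DOWN head-to-head pair, Jkamp/L3hypdh (1424 bp against 1204 bp).

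**Figure D4:**
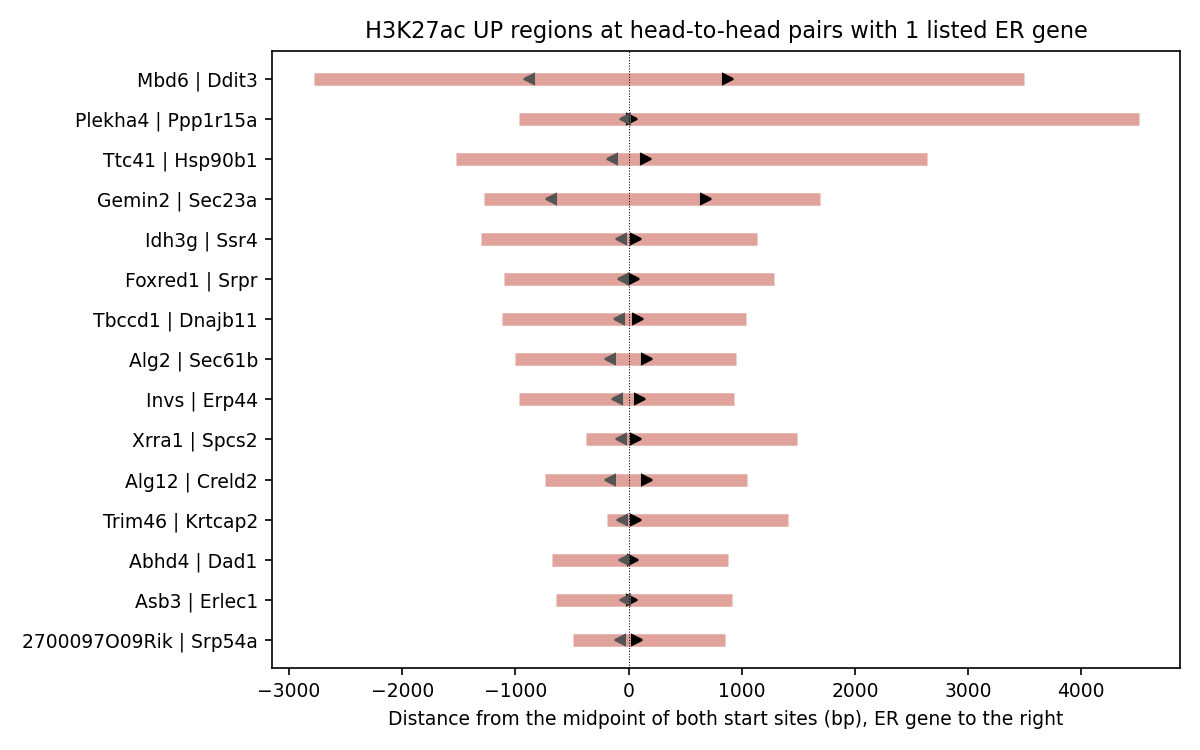
Extent (bp) of the 15 H3K27ac UP regions at head-to-head pairs with 1 listed ER gene, aligned at the midpoint of both start sites and turned so that the ER gene is transcribed to the right. Black arrowheads mark the TSS of the ER gene and grey ones that of its partner, and the region reaches further on the ER gene side in 11 of 15.

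Aminoacyl-tRNA synthetases, which charge tRNAs with amino acids, were UP in 6 of 9 divergent members (66.7%, 35.4% to 87.9%) and DOWN in 0, beside 16 of 27 1-gene regions (59.3%). The UP members included Wars/Wdr25, Hars/Hars2 and the mitochondrial synthetases Rars2/Orc3, Ears2/Ubfd1 and Fars2/Lyrm4. Hars and Hars2 are a divergent pair of cytosolic and mitochondrial histidyl-tRNA synthetases, and Wdr25 held an ATF4 motif in its window.

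At respiratory chain genes, the UP share of divergent members was near that of all divergent members (26.0%), while the 1-gene share was below that of all 1-gene regions (18.7%). UP were 9 of 32 divergent members (28.1%, 15.6% to 45.4%) against 3 of 56 1-gene regions (5.36%, 1.84% to 14.6%), and 0 of either were DOWN. They included complex I genes in Eef1b2/Ndufs1, Ndufa6/Smdt1, Ndufa7/Rps28, Ndufa11/Vmac and Ik/Ndufa2, and ATP synthase genes in Atp5c1/Kin, Atp5f1/Wdr77 and Atp5j/Gabpa. Genes of the cytosolic ribosome were UP in 6 of 17 (35.3%, 17.3% to 58.7%) against 9 of 60 (15.0%, 8.10% to 26.1%), with overlapping intervals, and those of the mitochondrial ribosome in 6 of 31 (19.4%) against 8 of 48 (16.7%). DNA repair and replication genes were UP in 9 of 37 divergent members (24.3%), near the 26.0% of all divergent members, against 10 of 71 (14.1%), among them Ankrd49/Mre11a and Xrcc6/Desi1 (double-strand breaks). The 1 DOWN member of the last list was Brca1/Nbr1 (chr11:101551946-101559246), which reached 9 bp on the side of Brca1 and 7097 bp on that of Nbr1, an autophagy receptor.

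Other families gave smaller numbers. They are set beside all divergent members, of which 26.0% were UP and 4.13% DOWN. Proteasome genes were UP in 1 of 10 divergent members (Psmc2/Dnajc2) and DOWN in 2 (Psmd13/Sirt3 and Psmd10/Atg4a), beside 2 UP and 0 DOWN of 28 at 1 gene. Zinc finger Zfp genes were UP in 6 and DOWN in 3 of 27 (22.2% and 11.1%), beside 15.4% and 3.73% at 1 gene. Histone genes were UP in 2 and DOWN in 1 of 5, beside 0 UP and 1 DOWN of 11 at 1 gene. Bola1/Hist2h2ab/Hist2h2ac/Hist2h2be was the UP member with the most symbols (4).

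**Figure D5:**
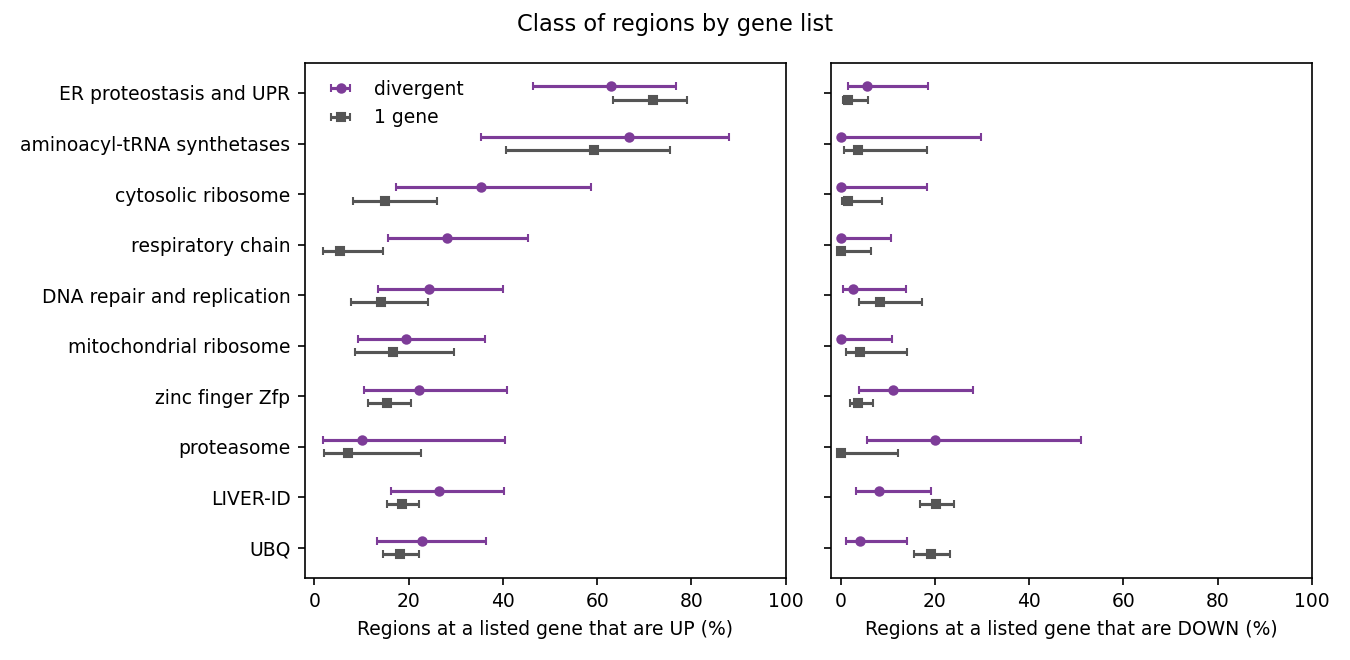
Share of regions (%) at genes of each list that were UP (left) or DOWN (right), for divergent members (circles) and 1-gene regions (squares), with 95% Wilson intervals. The respiratory chain had 28.1% UP at divergent members and 5.36% at 1 gene, with intervals that do not overlap.

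LIVER-ID and UBQ genes were set against all divergent members, of which 26.0% were UP and 4.13% DOWN, and against 1-gene regions. LIVER-ID genes are those the study selected for a broad H3K4me3 domain in liver that few of its other tissues had. UBQ genes carry the other broad domains of liver, which the study calls ubiquitous. Of 49 divergent members at a LIVER-ID gene, 13 were UP (26.5%) and 4 DOWN (8.16%, 3.22% to 19.2%), against 92 (18.6%) and 100 (20.2%, 16.9% to 24.0%) of 495 at 1 gene, and the intervals for DOWN overlapped. The DOWN share at LIVER-ID genes lay above that of all divergent members (4.13%, 3.07% to 5.54%), also with overlapping intervals. The DOWN ones included Fgb/Plrg1, with the fibrinogen β chain 5658 bp from the start site of Plrg1, Apoa1/Apoc3, with apolipoproteins of HDL and of triglyceride-rich particles, and Brca1/Nbr1. On 1 strand, 5 of 11 LIVER-ID members were DOWN (45.5%, 21.3% to 72.0%), among them the apolipoprotein cluster Apoc2/Apoc4 and Trf, which encodes transferrin. Of all 141 same-strand members, 9.93% were DOWN (6.01% to 16.0%). In the widest decile, where all 5 lay, 10 of 31 same-strand members were DOWN (32.3%, 18.6% to 49.9%). UBQ genes were DOWN in 2 of 48 divergent members (4.17%, 1.15% to 14.0%) against 75 of 392 at 1 gene (19.1%, 15.5% to 23.3%), and UP in 11 (22.9%) against 71 (18.1%).

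LIVER-ID TFs were found at 4 divergent members (0.393%) and 2 same-strand members (1.42%), beside 0.503% of 1-gene regions. Foxa3/Sympk, with the pioneer factor FOXA3 (5562 bp), and Zfp91/Lpxn were unchanged, and Thap2/Zfc3h1 (7029 bp) was UP. On 1 strand, Stat2/Apof was DOWN (4727 bp) and Mafg/Sirt7 unchanged (9719 bp). At 1 gene, 13 of 43 regions with a LIVER-ID TF were DOWN (30.2%) and 7 UP (16.3%).

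Pairs listed as bidirectional were mostly found in 1 region. Of 13 listed pairs, 10 shared a region, of which 2 were UP, 1 DOWN and 7 unchanged. Hspd1/Hspe1, the mitochondrial chaperonin and its cochaperonin, was UP (chr1:55085744-55092186, 6443 bp, start sites crossing), as was Fen1/Tmem258 (1979 bp), with the flap endonuclease of DNA replication. Brca1/Nbr1 was DOWN. Surf1/Surf2, Ppat/Paics, Atm/Npat, Mrps12/Sars2, Tap1/Psmb9 and Col4a1/Col4a2, the collagen IV chains, were among the unchanged ones. Prkdc/Mcm4 and Acaca/Tada2a did not share a region, and Ddit3 and Mars lay in separate UP regions.

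Members with 3 or more symbols included the UP regions Ddx28/Dpep2nb/Dus2 (9061 bp) and, on 1 strand, Hyal1/Hyal3/Naa80 (7651 bp), with hyaluronidase genes. Dgkq/Idua/Slc26a1 (8400 bp) and Apoc2/Apoc4/Gm44805 (6878 bp) were DOWN. Gm20604/Gm28051/Gon7/Ubr7, Glb1l/Stk16/Tuba4a and Btd/Gm49387/Hacl1 were unchanged. Over the 47 members with 3 or 4 symbols, 25.5% were UP (15.3% to 39.5%) and 10.6% DOWN (4.63% to 22.6%), beside 24.9% and 4.59% of those with 2.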

How the data were processed

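Per the labels and the study's methods, the authors aligned reads with Bowtie, removed duplicates and blacklisted regions, called broad peaks with MACS2 on pooled libraries and tested bins of 150 bp with csaw. The deposited files used here give region positions in bp on mm10, in 3 lists, and 0 columns of other samples. Depth is unknown. No region ran past a chromosome end of GRCm38. Regions were assigned the TSSs of 101639 transcripts of 21911 protein-coding symbols (GENCODE M21), and the genome sequence was RefSeq's GRCm38.p6. Odds ratios within deciles of width or CpG are Mantel-Haenszel estimates. Gene lists matched 159 of 161 (ER), 38 of 38 (tRNA synthetases), 130 of 131 (DNA repair), 513 of 621 (LIVER-ID), 43 of 43 (LIVER-ID TFs) and 506 of 657 (UBQ) symbols; the other families were taken by their shared symbol. Members and lists were chosen with earlier results of these data known. Named were textbook pairs, listed ER and tRNA synthetase genes at changed members, LIVER-ID TFs, LIVER-ID genes at divergent DOWN members, the 5 widest divergent UP and DOWN members, the 3 with the most symbols in each class and the 3 smallest distances between start sites in UP and DOWN; some that the rule names are not reported here, and other genes named were chosen after their values were seen. Functions were tested on simulated data. Python 3.11.15, numpy 2.4.6, pandas 2.3.3, pysam 0.24.0 and matplotlib 3.10.9 were used.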

Additional observations from a re-analysis of the deposited data

How the results depend on the processing

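The odds ratios of all members and of divergent members against regions at 1 symbol kept their direction, with intervals that leave out 1, under each of their 11 alternatives. They ranged from 1.23 to 1.65 and from 1.27 to 1.73 for UP, and from 0.424 to 0.737 and from 0.360 to 0.654 for DOWN. For divergent against same-strand members, the interval for UP included 1 with 1 TSS per gene (odds ratio 1.47), without predicted symbols (1.46), with protein_coding transcripts only (1.39), without readthrough transcripts (1.40), in regions of at least 1 kb (1.57), within CpG deciles (1.58), within width and CpG quintiles (1.54) and without ER genes (1.48). For DOWN it did so within CpG deciles (0.617) and within width and CpG quintiles (0.561). The share of crossing start sites moved from 39.1% to 19.6% with the closest TSSs. The cause was not tested. The alternatives on CpG, ER genes and readthrough, and the comparison of divergent members with regions at 1 symbol, were chosen after seeing the data. No paired analysis was possible because the lists hold no value per library, and leaving out each replicate could not be run for the same reason. Depth, the size of a change and its spread between experiments are unknown, and an unchanged class does not show that H3K27ac stayed the same.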

Other observations

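The Alg and Exosc families stood out among the UP members and were chosen after their values were seen, so their counts are a description. Alg genes, which build the precursor of N-glycans on the ER membrane, were UP in 5 of 6 divergent members (Alg2/Sec61b, Alg5/Exosc8, Alg9/1110032A03Rik, Alg12/Creld2 and Alg3/Eef1akmt4) and in 0 of 7 regions at 1 gene. Exosc genes, which encode subunits of the RNA exosome, were UP in 5 of 6 divergent members (Exosc1/Zdhhc16, Exosc3/Dcaf10, Exosc4/Oplah, Exosc5/Bckdha and Exosc8/Alg5) and in 1 of 5 regions at 1 gene. Of all divergent members 26.0% were UP, and of regions at 1 symbol 18.7%. The region at Alg5 and Exosc8 counts in both families. Those at Alg2/Sec61b and Alg12/Creld2 also count among the UP members at ER proteostasis and UPR genes.

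Some genes at members had a further TSS in another region. This held for 234 of the 2341 genes, in 260 pairs of a gene and another region. Both regions had changed in 26 of these pairs, in the same direction in 12 and in opposite directions in 14. In 13 of the latter the member was UP and the other region DOWN, as at Vmp1, a membrane protein of autophagy, Mthfd2, a mitochondrial folate enzyme, and Stard10, a lipid transfer protein. Mthfd2 also had a TSS in another UP region, and Stard10 in an unchanged one. At Zfp219 the member was DOWN and the other region UP. These genes were named after their values were seen. Where the member was UP, the other region was UP in 9 pairs and unchanged in 46. Among all regions, 17.1% were UP and 10.5% DOWN.

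The hormone gene Fgf21, an ATF4 target in the stressed liver, shared an UP region with Fut1 (chr7:45615169-45617355, 2187 bp), with 1798 bp between the start sites, and held the ATF4 motif in its window. Serp1, which encodes a stabilizer of ER membrane proteins, shared one with Eif2a (chr3:58524309-58526669), with start sites that cross by 71 bp. Both were chosen after their values were seen.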
